A study of Mus musculus with 2 samples.

Results

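A set of 10 genes of the blood vessels of mouse pancreatic islets was examined: 9 markers of endothelial cells (Vwf, Egfl7, Eng, Pecam1, Cdh5, Kdr, Flt1, Esam and Plvap) and the vessel growth factor Vegfa. They were taken by gene symbol, 10 of 17245 genes in the deposited table, and each of the 10 reached 1 FPKM in both libraries. FPKM is a gene's read or fragment number divided by its length in kilobases and by the library's total in units of 1000000. The study compared islets of KO mice, which the submitters name cGASβKO after the gene for cGAS, an enzyme that senses DNA in the cytosol, and the β-cell, with islets of WT mice. Each genotype has 1 library, 2 in all, which leaves every difference without a replicate check, and no p-value was computed. The driver of recombination, the deleted exon, the strain, the age and the number of animals behind each library are not stated in the labels. Islets were freed with collagenase, picked by hand and kept in culture medium before RNA was extracted, per the labels' protocols.

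Recovered library totals were 14537660 reads for KO and 19097001 for WT. The insulin genes and glucagon were present at high levels in both libraries, with Ins1 at 237131 FPKM in KO and 113793 FPKM in WT, Ins2 at 182558 FPKM in KO and 250577 FPKM in WT and Gcg at 26588 and 27070 FPKM in KO and WT. Cgas, the targeted gene, was at 0.521 FPKM in KO, against 0.205 FPKM in WT, a ratio of 2.55 that rests on at least 31 and 16 reads. Because Cgas RNA was not lower, the first is called the library labelled KO, or KO-labelled library, and each direction is between the libraries as labelled. A gene total does not separate a deleted exon from the rest of the gene, or β-cells from other islet cells.

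Islets are among the most densely supplied endocrine tissues, with capillaries whose endothelial cells are perforated by fenestrae, pores that let hormones pass into the blood. In mice the β-cell is a main source of vascular endothelial growth factor A, the product of Vegfa, which acts on neighbouring endothelial cells through the receptor tyrosine kinases encoded by Kdr and Flt1. Ligand and receptors are therefore made by different cells of the islet, and whole-islet RNA holds both.

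The stretch before a listed transcription start is shown for the members that have an entry in the RefSeq promoter table of build GRCm38.p6, which were 5 of the 10: Egfl7, Eng, Kdr, Flt1 and Vegfa. Vwf, Pecam1, Cdh5, Esam and Plvap are named without a sequence. These windows are shown because endothelial genes are classically bound by ETS-family factors, and they put a receptor, its ligand and 2 of the genes with the widest differences side by side. Each is the 250 bases before the most upstream listed start, 5′ to 3′ on the gene's strand, in lower case, with every GGAA or its reverse complement TTCC, the ETS core, in capitals. The Egfl7 window lies inside the GENCODE span of the gene and 27 of its bases are exonic there. The Kdr and Flt1 windows lie inside the RefSeq spans of their genes, which reach upstream to 75979072 and 147726438. Of the Kdr window 3 bases are exonic in GENCODE.
Egfl7 (chr2:26580833-26581082, plus strand): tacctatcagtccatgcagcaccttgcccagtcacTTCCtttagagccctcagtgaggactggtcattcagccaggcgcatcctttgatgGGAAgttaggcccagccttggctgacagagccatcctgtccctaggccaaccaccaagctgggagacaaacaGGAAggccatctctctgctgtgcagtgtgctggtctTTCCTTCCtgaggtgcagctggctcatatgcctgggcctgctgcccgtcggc
Eng (chr2:32646345-32646594, plus strand): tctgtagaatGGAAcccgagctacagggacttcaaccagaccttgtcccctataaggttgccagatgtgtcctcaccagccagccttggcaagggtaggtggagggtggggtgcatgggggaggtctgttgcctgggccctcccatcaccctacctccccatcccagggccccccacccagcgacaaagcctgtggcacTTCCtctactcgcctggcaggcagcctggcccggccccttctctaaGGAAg
Kdr (chr5:75978456-75978705, minus strand): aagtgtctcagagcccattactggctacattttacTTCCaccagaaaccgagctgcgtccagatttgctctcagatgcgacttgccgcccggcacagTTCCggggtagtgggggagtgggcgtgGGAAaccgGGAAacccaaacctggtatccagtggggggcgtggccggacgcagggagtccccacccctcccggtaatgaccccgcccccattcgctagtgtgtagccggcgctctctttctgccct
Flt1 (chr5:147726012-147726261, minus strand): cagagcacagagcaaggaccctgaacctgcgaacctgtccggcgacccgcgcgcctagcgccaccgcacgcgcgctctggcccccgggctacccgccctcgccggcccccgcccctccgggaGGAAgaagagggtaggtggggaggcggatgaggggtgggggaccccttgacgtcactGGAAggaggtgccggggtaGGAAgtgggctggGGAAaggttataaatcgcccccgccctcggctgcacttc
Vegfa (chr17:46032378-46032627, minus strand): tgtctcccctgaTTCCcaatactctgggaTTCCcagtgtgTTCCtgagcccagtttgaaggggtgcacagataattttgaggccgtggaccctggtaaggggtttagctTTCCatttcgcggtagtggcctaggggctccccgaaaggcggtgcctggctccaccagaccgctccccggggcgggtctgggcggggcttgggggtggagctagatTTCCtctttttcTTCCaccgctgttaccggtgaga

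Counted on both strands, GGAA occurred 5 times in the Egfl7 window, 3 times in Eng, 4 times in Kdr, 4 times in Flt1 and 6 times in Vegfa. It is a common motif: 93.4% of 32851 listed windows of the same length hold it, with a median of 3 matches. The longer FOX:ETS composite AACAGGAA, which contains the ETS core, was found once in the Egfl7 window, starting at position -92 from the start, and in none of the other 4 windows, against 2.25% of all windows. The GC box GGGCGG was found 2 times in Kdr, 3 times in Flt1 and 2 times in Vegfa, and 32.7% of all windows hold it. TATAA was found in the Flt1 and Eng windows and in 22.8% of all windows. Neither the hypoxia element core ACGTG (16.6% of all windows) nor CCGGAAG (6.91%) occurred in the 5 windows shown. These matches describe the letters of the windows and were not related to the measured values.

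Egfl7 is also the host gene of miR-126, a microRNA of endothelial cells. The mature form mmu-miR-126a-3p lies on chromosome 2 from 26591402 to 26591423 on the plus strand (GRCm38.p6), and its seed, bases 2 to 8, is in capitals here because the seed selects its targets.
mmu-miR-126a-3p: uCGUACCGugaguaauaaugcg
The table holds no value for the microRNA, so the Egfl7 difference below is that of the host gene.

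All 9 endothelial markers had higher FPKM in the library labelled KO, by ratios between 1.51 (Kdr) and 3.85 (Vwf), while Vegfa lay close to its WT level, with a ratio of 1.13. Summed over the 9 markers the level was 666 FPKM in the KO-labelled library, against 288 FPKM in WT, a ratio of 2.31. Without Plvap, which alone made up 42.7% and 38.2% of these sums in KO and WT, the sums were 382 and 178 FPKM, a ratio of 2.15. In whole-islet RNA, more endothelial cells and more RNA per endothelial cell cannot be told apart. Differences are given as log2((KO + 1)/(WT + 1)) of FPKM, and a gene is called at least 2-fold higher or lower from 1 or -1 on that scale. On it 5 of the 9 markers were called higher and none was called lower, beside 6.98% of 12428 expressed genes (1 FPKM or more in either library) that were at least 2-fold higher and 3.88% that were at least 2-fold lower. Both directions together covered 10.9% of the expressed genes. The median of the 9 markers was 1.06, beside a median of 0.077 and quartiles of -0.35 and 0.51 over all expressed genes.

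**Figure D1:**
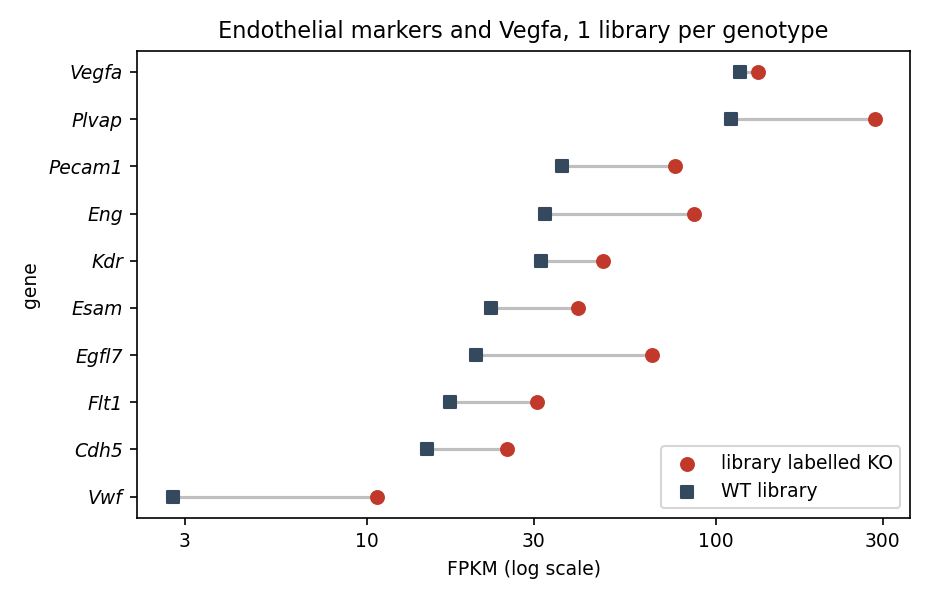
FPKM of the 9 endothelial markers and Vegfa on a log axis, with a red circle for the library labelled KO and a dark square for the WT library, 1 library each. Every circle lies to the right of its square, from Vwf at 10.7 against 2.77 FPKM to Vegfa at 132 against 117 FPKM.

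Vegfa (chromosome 17, 46016993 to 46032369, minus strand; GENCODE M21 on GRCm38, as for all loci below) was at 132 FPKM in the KO-labelled library, against 117 FPKM in WT. These were among the most abundant RNAs of either library, at percentiles 97.7 and 97.6 of the expressed genes in KO and WT. The ratio was 1.13, with an exact 95% interval of 1.09 to 1.16 from at least 8016 and 9337 reads, and the log2 difference of 0.17 placed it at percentile 55.5 of all expressed genes. The gene total does not separate the splice forms of Vegfa.

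Kdr (chromosome 5, 75932827 to 75978458, minus strand), the receptor that carries most of the growth signal of this ligand, was at 47.4 FPKM in the KO-labelled library, against 31.5 FPKM in WT. Its ratio of 1.51 (1.45 to 1.57) was the lowest of the 9 endothelial markers. Flt1 (chromosome 5, 147561604 to 147726011, minus strand), a receptor that binds the ligand tightly, signals weakly and also exists as a soluble decoy, was at 30.6 FPKM in KO and 17.3 FPKM in WT, a ratio of 1.77 (1.66 to 1.89). Both receptors stayed short of the 2-fold limit, with log2 differences of 0.58 and 0.79 for Kdr and Flt1, and their exact intervals did not overlap that of Vegfa. Flt1 stood at 0.646 of the Kdr level in the KO-labelled library, against 0.550 in WT, per length. There were 2.79 units of Vegfa FPKM per unit of Kdr FPKM in the KO-labelled library, against 3.72 in WT.

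Among the junction and adhesion molecules, Pecam1 (chromosome 11, 106654217 to 106750628, minus strand), the surface protein CD31 of endothelial cells that platelets and leukocytes also carry, was at 76.1 FPKM in the KO-labelled library, against 36.1 FPKM in WT. Its ratio was 2.11 (2.002 to 2.22) and its log2 difference 1.06, the narrowest of the 5 calls. Cdh5 (chromosome 8, 104101625 to 104144511, plus strand), VE-cadherin, which holds endothelial cells together, was at 25.2 FPKM in KO and 14.8 FPKM in WT, a ratio of 1.70 (1.52 to 1.90). Esam (chromosome 9, 37528078 to 37538319, plus strand), a tight-junction adhesion molecule of endothelial cells and platelets, was at 40.3 FPKM in KO and 22.7 FPKM in WT, a ratio of 1.78 (1.62 to 1.95). Cdh5 and Esam were within 2-fold, at log2 differences of 0.73 and 0.80.

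Plvap (chromosome 8, 71497765 to 71511752, minus strand) encodes the protein of the diaphragms that span fenestrae and caveolae. It was the most abundant of the endothelial markers in both libraries, at 284 FPKM in the KO-labelled library, against 110 FPKM in WT, a ratio of 2.58 (2.49 to 2.67). Vegfa was below Plvap in the library labelled KO and above it in the WT library, with 0.465 units of Vegfa FPKM per unit of Plvap FPKM in KO and 1.06 in WT. When a trend of the differences with GC content and transcript length was removed, the log2 difference of Plvap was 0.81 in place of 1.36, no longer past 2-fold.

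Eng (chromosome 2, 32646595 to 32682669, plus strand), endoglin, a co-receptor that presents ligands of the bone morphogenetic protein family to the receptor ALK1, was at 86.3 FPKM in the KO-labelled library, against 32.4 FPKM in WT. The ratio was 2.66 (2.53 to 2.81) and the log2 difference 1.39. Its exons share 61 bases with Fpgs on the opposite strand, 1.51% of its exonic length, so a few of its reads cannot be assigned with certainty.

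Egfl7 (chromosome 2, 26580014 to 26593120, plus strand), a secreted protein that endothelial cells deposit around growing vessels, was at 65.4 FPKM in the KO-labelled library, against 20.5 FPKM in WT. Its ratio was 3.19 (2.90 to 3.51), and by level it took place 5 of the 10 genes in the KO-labelled library and place 7 in WT. Its exons share 264 bases, 7.37% of their length, with the predicted gene Gm20532 on the same strand, and shorter stretches with Agpat2 and miR-126. With the GC and length trend removed, its log2 difference was 1.02 in place of 1.63.

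Vwf (chromosome 6, 125546774 to 125686679, plus strand), von Willebrand factor, which tethers platelets and is stored in the Weibel-Palade bodies of endothelial cells, was the least abundant of the 10 genes in both libraries. It was at 10.7 FPKM in the KO-labelled library, against 2.77 FPKM in WT, percentiles 60.9 and 22.8 of the expressed genes in KO and WT. The ratio of 3.85 (3.46 to 4.28), from at least 1385 and 473 reads, was the widest of the 10, and only 90 of 12428 expressed genes had a higher log2 difference. Vwf stood at 0.423 of the Cdh5 level in the KO-labelled library, against 0.187 in WT. Because Vwf was low in WT, its log2 difference of 1.63 depended on the pseudocount and was 1.91 with 0.1 FPKM and 1.01 with 5 FPKM.

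Ordered by ratio, the genes ran Vwf, Egfl7, Eng, Plvap, Pecam1, Esam, Flt1, Cdh5, Kdr and Vegfa. The exact intervals of Vwf and Egfl7 overlapped, as did those of Eng and Plvap, and those of each neighbouring pair from Esam through Flt1 and Cdh5 to Kdr. They did not overlap between Egfl7 and Eng, between Plvap and Pecam1, between Pecam1 and Esam, or between Kdr and Vegfa. The endothelial markers therefore did not share 1 ratio within counting error: Vwf and Kdr differed in their ratios by more than their intervals. The intervals cover counting error only and say nothing of variation between animals.

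**Figure D2:**
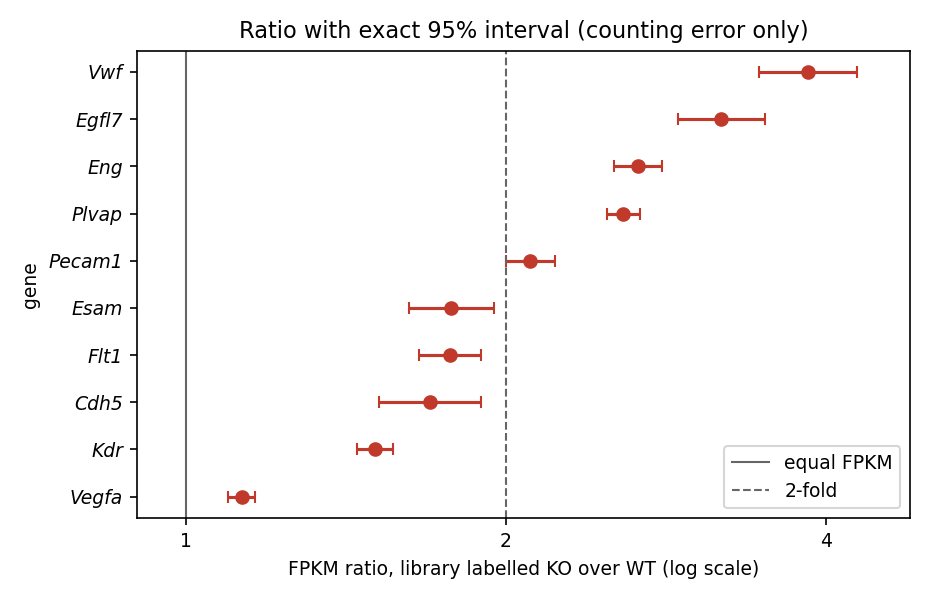
Ratio of FPKM, library labelled KO over WT, on a log axis for each gene, with bars for the exact 95% interval from recovered reads. The dashed line marks 2-fold: Vwf, Egfl7, Eng and Plvap lie to its right, Pecam1 lies at 2.11 with its interval starting at 2.002, and Vegfa lies at 1.13.

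The direction of all 10 genes was the same under each of the 8 alternative settings, while the count of calls and the order depended on them. With the sum of each library set to 1000000, the median of all expressed genes was -0.049 in place of 0.077 and the log2 difference of Vegfa was 0.03. Under the same scaling Pecam1 was at 0.92 and was not called, so 4 of the 9 markers were at least 2-fold higher. Higher genes made up 64.3% of all calls at the deposited scale, 46.5% with sums of 1000000 and 44.3% with equal sums without the 20 highest genes. With the GC and length trend removed, Flt1 was called at 1.03 while Plvap was not.

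**Figure D3:**
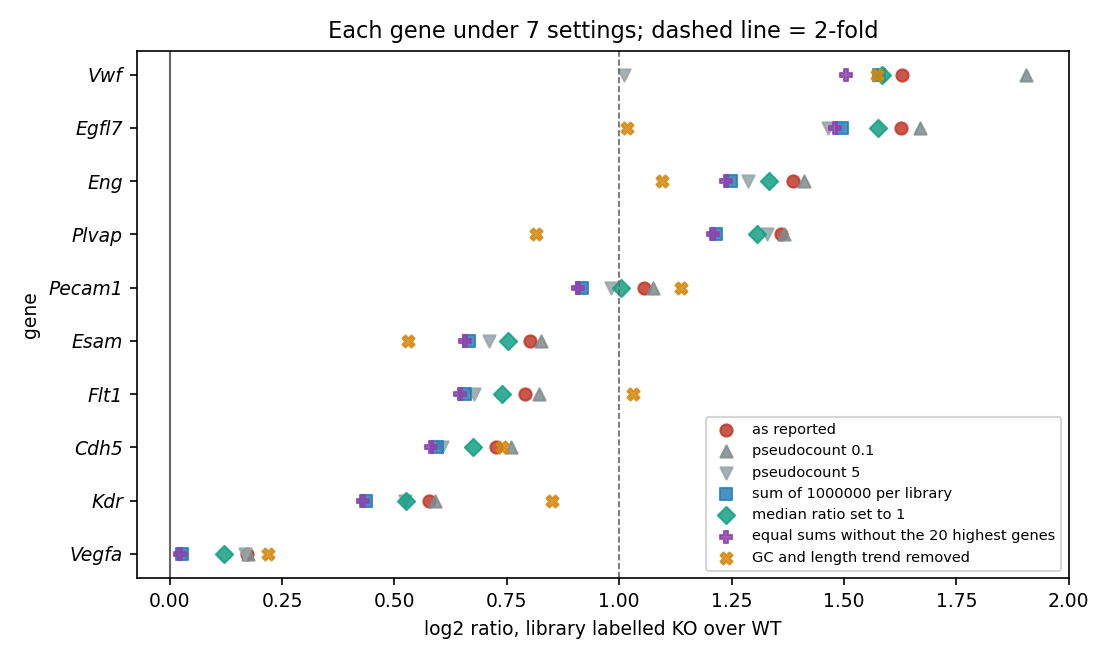
Log2 difference of each gene, library labelled KO over WT, at the reported setting (red circle) and under 6 alternatives that change it, with the dashed line at 2-fold. No point lies below 0, Vegfa spans 0.02 to 0.22, and Plvap spans 0.81 to 1.37.

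Further markers of the same cells were taken from lists. Each is described by its counts and median, beside the 6.98% of all expressed genes that were at least 2-fold higher. The lists were chosen with earlier results of these data known, so their counts are not separate support for the difference. They also share genes: Tek, Tie1, Ptprb and Cav1 of the pan-endothelial list recur on later lists, and Flt4 is on the receptor and lymphatic lists. Of 30 other pan-endothelial markers, all 30 were expressed and above 0, 15 were at least 2-fold higher, and the median was 1.00. The widest difference was that of Egfl8, a relative of Egfl7, at 2.86 FPKM in KO and 0.445 FPKM in WT, which rests on at least 44 and 9 reads. Egfl8 passed the floor through the library labelled KO alone, so its direction was fixed by the floor, and the other 29 genes reached it in both libraries. S1pr1, a receptor for the blood lipid sphingosine 1-phosphate, was at 16.1 FPKM in the KO-labelled library, against 5.79 FPKM in WT. Rasip1, an effector needed for vessel lumen formation, was at 13.0 FPKM in KO and 4.59 FPKM in WT, and Ramp2, a partner of the adrenomedullin receptor, was at 46.9 FPKM in KO and 18.9 FPKM in WT. With the GC and length trend removed the log2 differences of Rasip1 and Ramp2 were 0.85 and 0.54, no longer past 2-fold. With equal sums without the 20 highest genes 7 of the 30 were called, and 3 with a pseudocount of 5 FPKM.

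Of 12 genes of fenestrae and capillaries, Plvap among them, all 12 were above 0 and 8 were called higher, and the median was 1.09. Fabp4, a fatty-acid carrier of capillary endothelium and adipocytes, was at 87.6 FPKM in the KO-labelled library, against 36.9 FPKM in WT. Cavin1 and Cav1, structural proteins of caveolae, had log2 differences of 1.18 and 1.14. With equal sums without the 20 highest genes 3 of the 12 were called, as were 4 after removal of the GC and length trend and 2 with a pseudocount of 5 FPKM.

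Of 13 listed markers of veins, arteries and activated endothelium, Vwf among them, 10 were expressed, all above 0, and 6 were at least 2-fold higher. Selp, P-selectin, which is stored in the same Weibel-Palade bodies as Vwf, was at 8.26 FPKM in the KO-labelled library, against 1.20 FPKM in WT, a ratio of 6.87 (5.39 to 8.85). Vcam1 and Icam1, adhesion molecules for leukocytes, were at 6.98 and 11.3 FPKM in KO and at 1.83 and 4.003 FPKM in WT. The list median was 1.14, or 1.02 with no floor on low values, and 2 genes were called with a pseudocount of 5 FPKM. Sele, another selectin, passed the floor through the library labelled KO alone.

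In the Eng pathway, 6 of 15 expressed genes of endoglin and ALK1 signalling, Eng included, were at least 2-fold higher and none was called lower, with 10 above 0 and a median of 0.59. Tgfbr1, a receptor for transforming growth factor β, was at 5.82 FPKM in KO and 11.5 FPKM in WT, a log2 difference of -0.87, and was called lower with sums of 1000000 (-1.04) and with equal sums without the 20 highest genes (-1.01). Acvrl1, which encodes ALK1, was at 20.99 FPKM in the KO-labelled library, against 7.12 FPKM in WT, a ratio of 2.95 (2.66 to 3.28). Id1 and Id3, inhibitors of helix-loop-helix factors and direct targets of the pathway, were at 35.1 and 36.5 FPKM in KO and at 9.14 and 13.9 FPKM in WT. The signal transducers Smad4, Smad5 and Smad1 lay the opposite way, at log2 differences of -0.67, -0.47 and -0.24. Id2, a relative of Id1 and Id3, was at -0.06, its ratio having an interval of 0.635 to 1.42. With the GC and length trend removed 3 genes of the list were called, and Id3 was at 0.81. This step put Smad5 and Id2 above 0, at 0.02 and 0.09, and left Smad4 and Smad1 below it, at -0.55 and -0.20. Other cell types express Id1 and Id3 as well.

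Of the VEGF ligands, Vegfa, Vegfb, Vegfc and Pgf were expressed, none was called, and the median was 0.21. Vegfb was at 41.2 FPKM in the KO-labelled library, against 34.8 FPKM in WT, and Pgf at 11.4 and 10.0 FPKM in KO and WT, the ratio of Pgf having an interval of 0.904 to 1.44. With the GC and length trend removed Vegfb and Pgf were at -0.51 and -0.20. Of the 5 VEGF receptors and co-receptors, Kdr and Flt1 among them, none was called, all were above 0 and the median was 0.73. Nrp2, a co-receptor, was at 4.84 FPKM in KO and 2.50 FPKM in WT, and Flt4, the receptor for Vegfc, was at 7.53 FPKM in KO and 4.13 FPKM in WT.

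Regulators of Vegfa transcription lay mostly on the other side: of 12 listed genes 9 were expressed, 3 were above 0, and the median was -0.53, or -0.15 with no floor, and -0.19 once the GC and length trend was removed. Hif1a, the oxygen-sensitive subunit of hypoxia-inducible factor, was at 7.12 FPKM in the KO-labelled library, against 15.3 FPKM in WT, a log2 difference of -1.002, or -0.53 with the trend removed. Epas1, the other oxygen-sensitive subunit, lay the opposite way, at 42.9 FPKM in KO and 27.4 FPKM in WT, a log2 difference of 0.63. Hif1an and Egln1, hydroxylases that restrain the factor, were at -0.72 and -0.69. Egln2, another such hydroxylase, was at 0.37, or -0.19 with the trend removed. Because the list holds these hydroxylases beside the subunits they restrain, its median gives no direction of Vegfa regulation. Of 16 expressed hypoxia-response genes 6 were above 0 and 1 was called lower, beside 3.88% of all expressed genes. It was Ero1a, an oxidase of the endoplasmic reticulum, at 5.92 FPKM in KO and 14.4 FPKM in WT, and -0.71 with the trend removed. Ldha, a lactate dehydrogenase subunit, lay the opposite way, at 12.2 FPKM in KO and 5.98 FPKM in WT, a log2 difference of 0.92. The median of that list was -0.11, or -0.25 with sums of 1000000, where 4 genes were above 0 and 2 were called lower.

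Of the angiopoietin-TIE system 4 of 7 genes were expressed, with none called and a median of 0.89, or 0.54 over all 7 with no floor; Tek and Ptprb were past 2-fold once the GC and length trend was removed. The receptors Tek and Tie1 were at 14.02 and 29.4 FPKM in the KO-labelled library, against 6.78 and 15.0 FPKM in WT. All 10 endothelial Notch genes were expressed, none was called, and the median was 0.64; Dll4, the ligand of sprouting tip cells, was at 14.5 FPKM in KO and 7.403 FPKM in WT. All 10 were above 0 at the deposited scale and 9 of them with sums of 1000000. Of 17 expressed endothelial transcription factors 2 were at least 2-fold higher, the flow-responsive factor Klf2 and Sox17, a factor of arterial cells, with a median of 0.82. The count was 10 with a pseudocount of 0.1 FPKM and 0 with 5 FPKM, and the medians there were 1.06 and 0.41. Klf2 was at 15.5 FPKM in KO and 6.34 FPKM in WT, or 0.58 on the log2 scale once the GC and length trend was removed. Sox17 was at 3.14 FPKM in KO and 0.534 FPKM in WT, so it passed the floor through the library labelled KO alone, as did Tal1 and Lyl1, and their directions were fixed by the floor.

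The junction list, which holds Pecam1, Cdh5 and Esam, was split. Of its 13 genes 8 were above 0 and 5 below, with a median of 0.24, and 2 were called higher, Icam2 and Pecam1. Cldn5 passed the floor through the library labelled KO alone and Ocln through the WT library alone, so their sides were fixed by the floor, and 11 genes reached it in both. Icam2, an adhesion molecule of endothelial cells, was at 9.93 FPKM in the KO-labelled library, against 3.17 FPKM in WT, and was at 0.96 on the log2 scale with the GC and length trend removed. Ocln and Tjp1, tight-junction genes that epithelial cells also express, were at 0.961 and 10.0 FPKM in KO and at 2.83 and 18.4 FPKM in WT, with log2 differences of -0.96 and -0.82. With sums of 1000000 Ocln was at -1.18 and counted as lower, and 7 of the 13 were above 0.

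**Figure D4:**
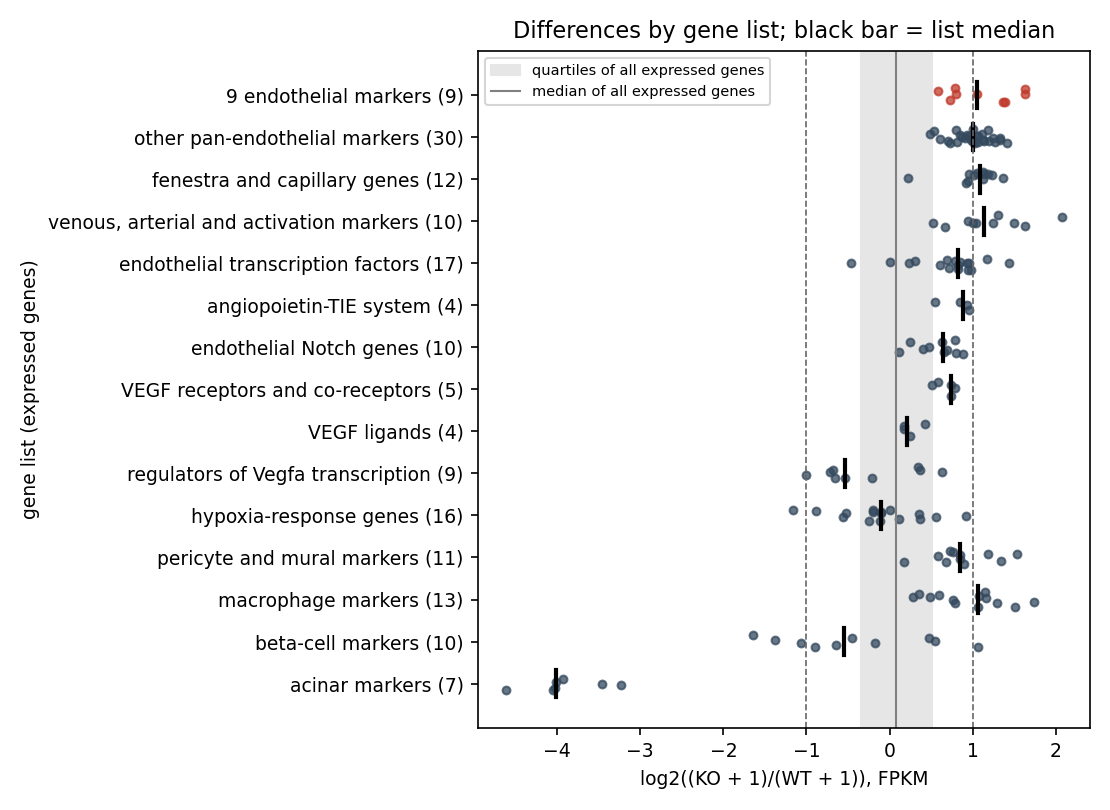
Log2 difference of every expressed gene in 15 lists, library labelled KO over WT, with red points for the 9 endothelial markers, black bars for list medians, a grey band for the quartiles of all expressed genes and dashed lines at 2-fold. The medians of the 9 markers (1.06) and of the 30 other pan-endothelial markers (1.00) lie to the right of the band, that of the VEGF ligands (0.21) inside it, and that of the acinar markers (-4.01) far to its left.

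Markers of other cell types also differed between the libraries, those of pericytes and macrophages in the direction of the endothelial genes and those of acinar cells the opposite way, and their part in the result was not tested. Sums cover every listed gene, those below the floor included. Pericyte and mural markers, all 11 expressed genes above 0 and 3 at least 2-fold higher, summed to 181 FPKM in the KO-labelled library, against 93.0 FPKM in WT, with a median of 0.84. Kcnj8, among the 11, passed the floor through the library labelled KO alone, and 1 gene was called with a pseudocount of 5 FPKM. Macrophage markers, all 13 expressed genes above 0 and 7 at least 2-fold higher, summed to 395 FPKM in KO and 172 FPKM in WT, with a median of 1.06, or 0.54 and 2 calls once the GC and length trend was removed. Of 9 platelet and megakaryocyte markers 2 reached 1 FPKM in either library, Itga2b of them through the library labelled KO alone. All 9 summed to 5.14 FPKM in KO and 2.26 FPKM in WT. Pf4, platelet factor, was at 0.351 FPKM in KO and 0.356 FPKM in WT. Gp6, Treml1 and Clec1b were listed at 0 in WT and rest on at least 3, 1 and 1 reads in KO, too few to read a difference from. Acinar markers summed to 81.5 FPKM in KO and 1599.8 FPKM in WT, with all 7 expressed genes at least 2-fold lower and Ptf1a listed at 0 in KO. Of 10 β-cell markers 1 was called higher and 3 lower, with a median of -0.55. Over all expressed genes 6.98% were called higher and 3.88% lower. Alpha, delta and PP cell markers had a median of 0.58, and -0.09 with the trend removed. Ductal markers had a median of 0.58.

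With 2 libraries the pattern of a gene is only its ratio. Among 168 listed genes that reached 5 FPKM in 1 or both libraries, the 3 nearest to Vegfa in log2 difference were Pgf (0.18), Itga1 (0.17) and Bmpr2 (0.18). The 3 nearest to the median of the 9 endothelial markers were Arhgef15, Gpihbp1 and Hspg2, each at 1.06.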

How the data were processed

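Per the labels' protocols, a SMARTER mRNA-Seq kit was used on total islet RNA. The authors deposited 1 table of FPKM values with 1 column per library. The submitters' processing notes name mm10 and GRCm38; which aligner, counter, annotation, strand setting or filter the authors used is not given in the sources used here.

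Deposited values were used as they stand. Library totals were searched that turn low values into 1 read over a whole length, and lengths from 60 to 30000 were then searched for whole reads in both libraries. Reads were whole, to 1e-05 plus 1e-09 times their number, for 17178 of 17245 genes (99.6%), against 2.1% of 1000 shuffled pairs. The smallest such reads gave exact Clopper-Pearson 95% intervals of the ratio. A true read number can be a whole multiple of the one used, which would make its interval too wide. PCR copies are not separate molecules, and the intervals hold counting error alone. With 1 library per genotype there was no count test. The search and the 2-fold rule were tested on simulated data. The planted changes were wider than 2-fold and the noise was counting error alone. The simulation therefore did not test changes near 2-fold or variation between animals.

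The pseudocount and the floor were 1 FPKM, and the log2 scale understates the change of low genes. The members and lists were chosen with earlier results of these data known. Named genes were the members, Cgas, and up to 4 genes per list with the widest differences. Genes outside that rule were chosen after their values were seen (Ins2, Gcg, Sele, Pf4, Gp6, Treml1, Clec1b, Ptf1a, Tgfbr1, Smad4, Smad5, Smad1, Id2, Epas1, Egln2, Tal1, Lyl1, Cldn5 and Kcnj8). Alternatives were pseudocounts of 0.1 and 5, no floor, a floor of 5 FPKM, 3 scalings, removal of a lowess trend (fraction 0.3, 3 iterations) on GC content and log2 length of the GENCODE M21 transcript for 12374 genes (99.6% of those expressed), and list means. SciPy 1.17.1 and statsmodels 0.14.6 were used.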

Additional observations from a re-analysis of the deposited data

How the results depend on the processing

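All 80 values of the 10 genes under the 8 alternatives stayed above 0, and 30 of them moved by more than the counting interval. The values with no floor and with a floor of 5 FPKM are the reported ones, and a pseudocount cannot change a sign. Only the scalings and the trend removal could therefore have changed a direction. A scaling multiplies every gene of a library by the same factor. Kdr, the lowest of the 9 markers, went from 0.58 to 0.43 at the lowest under them. The scalings were therefore a weak check of direction for the 9 markers. Of the 9 endothelial markers, 4 or 5 were at least 2-fold higher under each alternative: Pecam1 was lost with a pseudocount of 5 (0.98), with sums of 1000000 (0.92) and with equal sums without the 20 highest genes (0.91), and Plvap gave way to Flt1 with the GC and length trend removed. The median of the 9 markers was 0.92 with sums of 1000000 and 0.91 with equal sums without the 20 highest genes; under the other settings, the mean included, it lay within 0.1 of its reported 1.06. Counts over all expressed genes were 868 higher and 482 lower as reported. They were 1556 higher and 716 lower with a pseudocount of 0.1, 305 higher and 181 lower with one of 5, and 689 higher and 793 lower with sums of 1000000. They were 575 higher and 724 lower with equal sums without the 20 highest genes, and 530 higher and 283 lower with the trend removed. The causes were not tested. Of 197 list medians or means under alternatives, 92 moved by more than 0.1. No paired analysis was possible because there is 1 library per genotype; leaving out a library was likewise not possible. The reads of the 10 genes, at least 473 in each library, limit counting error, whereas variation between animals was not measured.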

Other observations

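Genes of the vascular basement membrane, the sheet of matrix on which endothelial cells rest, were listed as well. Of 15 expressed genes 13 were above 0, 1 was called higher and the median was 0.45, beside 6.98% of all expressed genes called higher. The 1 called was Hspg2, the heparan sulfate proteoglycan perlecan, at 18.3 FPKM in the KO-labelled library, against 8.26 FPKM in WT; it was at 0.92 with equal sums without the 20 highest genes. Lamb2 and Nid2, a laminin chain and a nidogen, had log2 differences of 0.99 and 0.94. Sparc, a matrix protein, was at 135 FPKM in KO and 74.3 FPKM in WT.

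Of 12 listed factors that restrain vessel growth or guide it, 9 were expressed, 8 of them above 0, with a median of 0.63. Cxcl12, a chemokine of stromal and endothelial cells, was at 4.62 FPKM in the KO-labelled library, against 1.46 FPKM in WT, a ratio of 3.18 (2.69 to 3.76), and Sema3f, a semaphorin, at 12.3 FPKM in KO and 5.38 FPKM in WT; both were called. With a pseudocount of 5 FPKM neither was (0.58 and 0.74), and Sema3f was also lost with sums of 1000000 (0.96) and once the GC and length trend was removed (0.73). Thbs1, thrombospondin 1, and Timp3, an inhibitor of matrix proteases, had log2 differences of 0.88 and 0.70. Of 7 lymphatic markers 5 reached 1 FPKM in either library, 3 of them through the library labelled KO alone, among them Tbx1, a factor of lymphatic development, which was called at 1.10. Of the 5, 4 were above 0, 3 of which the floor fixed, and the median was 0.49, or 0.15 with none called with a pseudocount of 5 FPKM. Below 0 was Lyve1, a hyaluronan receptor of lymphatic endothelium and some macrophages, at 3.09 FPKM in KO and 4.64 FPKM in WT, a ratio of 0.665 (0.441 to 0.990).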
